A study of Mus musculus with 32 samples.

Results

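Somatostatin (SST) interneurons are inhibitory nerve cells that release GABA together with the peptide somatostatin. In the cortex and in the hippocampus many of them send their axons to the distal dendrites of excitatory cells, where they damp incoming signals. Cells of this class in both regions share an origin in the ventral forebrain of the embryo, so RNA that marks them in both places is of interest as a common signature of the class. The data described here concern 75 features, of 56459 in the deposited table (0.133%), whose ribosome-associated RNA was higher in the SST groups of both regions than in every other neuron group of the series, and at a similar level in both SST groups.

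The members were chosen by their measured CPM, the usual scaling of a feature's count by the total of its library. A feature was kept when it had 1 CPM or more in all 8 SST libraries, when the lower of the 2 SST group means was at least 2 times each of the 6 other group means, and when the 2 SST means lay less than 2-fold apart. All comparisons of SST with another group, and of SST between the regions, are therefore part of the selection. They are given below as descriptions, without a test. The differences among the 6 groups without SST were not used by the rule, except that each mean was held under a ceiling, and these differences were tested.

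The series holds 32 libraries from mouse forebrain, 4 in each of 8 groups: CamK, Scnn, PV, SST and VIP from cortex, and CamK, Grik and SST from hippocampus. Every library is labelled with wild-type genotype. The labels give no alleles, driver lines, ages or sexes, and do not say whether the 4 libraries of a group came from separate animals, so the p-values below measure the spread between these libraries, which may be technical. By common usage the names PV, SST and VIP stand for kinds of inhibitory interneuron, and CamK, Scnn and Grik were read as excitatory populations. Titles of the hippocampal groups and of VIP cortex carry a W, and those of the other cortical groups do not; the labels do not say what it stands for. In bulk RNA of this kind, fewer cells of a type and less RNA per cell cannot be told apart.

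Totals ran from 100158438 to 114153919 counts per library, apart from SST hippocampus replicate 1 with 186505391. Over the 75 features median log2 ratio of that library to the mean of its 3 group mates was -0.04. The features carry identifiers without gene names in the files, and the reference tables used here held 0 of the identifiers. The class labels could therefore not be checked on marker genes, no gene or promoter can be shown, and at most 2 identifiers each way are given per comparison. Whether 2 features belong to the same gene, or overlap, is not known for the same reason.

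Together the 75 features took up 0.865% ± 0.055 (SD, n = 4) of all counts in SST cortex and 0.696% ± 0.015 in SST hippocampus. The share was 0.167% ± 0.008 in PV and 0.176% ± 0.008 in VIP cortex. It was 0.0787% ± 0.0051 in CamK cortex, 0.0705% ± 0.0064 in Scnn cortex, 0.0609% ± 0.0063 in CamK hippocampus and 0.0421% ± 0.0021 in Grik hippocampus. The SST libraries spanned 0.802% to 0.926% in cortex and 0.684% to 0.716% in hippocampus, so the ranges of the regions did not meet. A few abundant members carry most of this sum. Without the 5 most abundant features the shares were 0.348% ± 0.019 in SST cortex and 0.292% ± 0.006 in SST hippocampus.

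**Figure D1:**
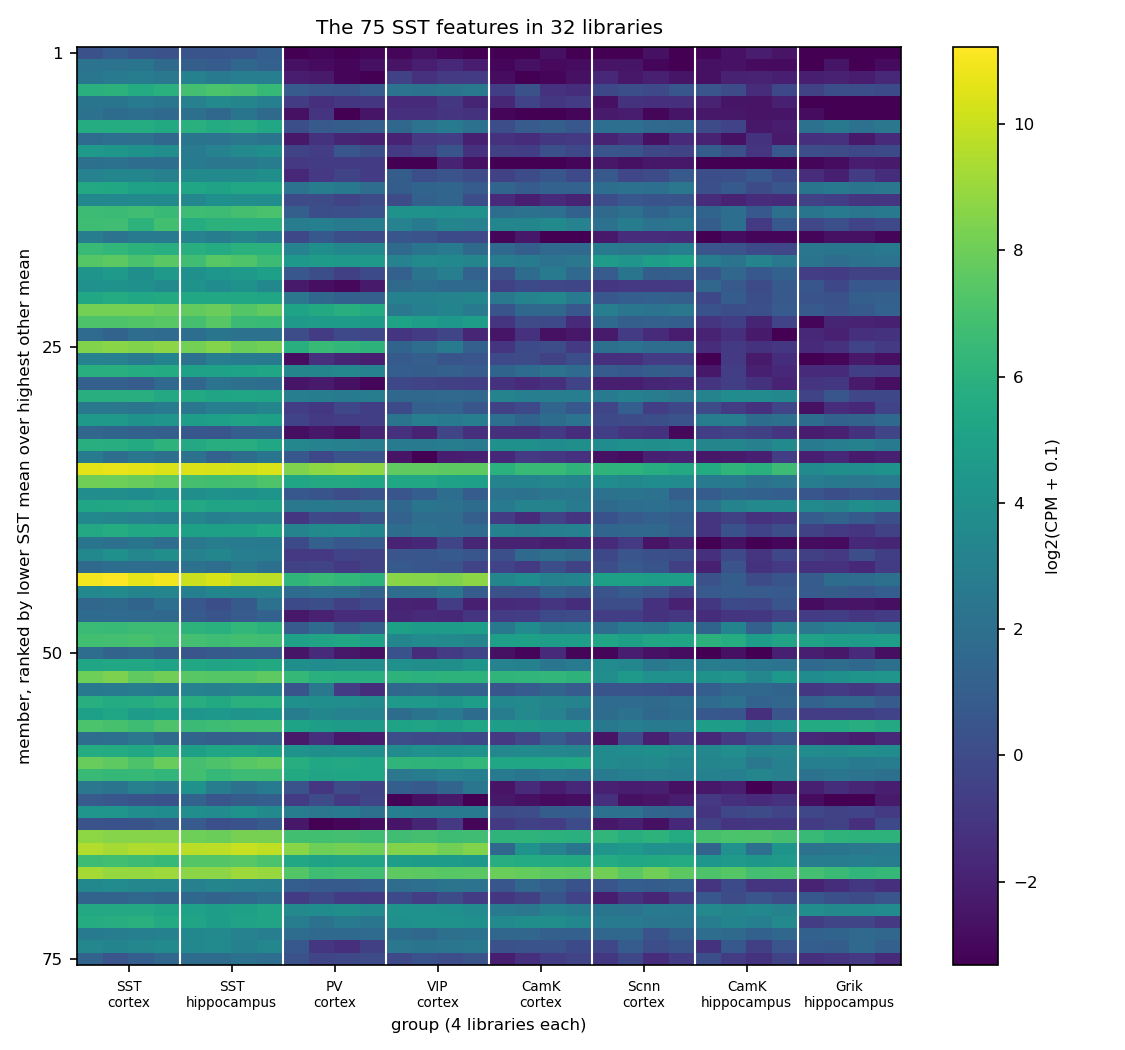
Level of each of the 75 features (rows, ranked by the lower SST mean over the highest other group mean) in the 32 libraries (columns, 4 per group), as log2(CPM + 0.1). The 8 SST columns at the left are the brightest of nearly every row, as the selection requires, and 73 of the 75 rows have all 8 SST libraries above the 24 others; the residual level differs from row to row and from group to group.

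The separation held library by library for most members. In 73 of the 75 features every one of the 8 SST libraries lay above all 24 other libraries, a pattern seen in 1.21% of the 24555 features tested; the rule used this contrast, so nothing is read from that difference. The lower SST mean was between 2.02 and 18.9 times the highest other mean, with a median of 3.06. It reached at least 3 times in 39 features, at least 5 times in 17 and at least 10 times in 7. The other 2 features overlapped through single libraries: in one, singled out after its values were seen, SST hippocampus replicate 2 at 1.04 CPM lay under CamK hippocampus replicate 5 at 1.31 CPM.

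GSMG0018767 had the highest ratio of the lower SST mean to any other group, 18.9, at a low level. Its CPM was 1.11, 1.79, 1.30 and 1.12 in SST cortex replicates 1 to 4 and 1.26, 1.29, 1.35 and 1.90 in SST hippocampus replicates 1, 2, 3 and 5. Outside SST it did not exceed 0.127 CPM, in CamK hippocampus replicate 4, and it had no count in any of the 4 Grik libraries. Both SST groups overlapped each other and stood clear of all other groups.

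GSMG0013879 came next, with a ratio of 16.2. It stood at 4.60, 4.49, 4.83 and 3.19 CPM in the SST cortex libraries and at 2.05, 1.78, 2.80 and 2.14 CPM in the SST hippocampus libraries. The highest value elsewhere was 0.225 CPM, in VIP cortex replicate 3. All 4 cortical SST libraries were above all 4 hippocampal ones, by 1.95-fold between the means, which is the largest excess of cortex over hippocampus that a member showed. Without SST cortex replicate 4 the SST means were 2.12-fold apart, and without SST hippocampus replicate 3 they were 2.15-fold apart, past the limit of the rule.

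The level of the members in SST neurons covered 3 orders of magnitude. The lower SST mean ran from 1.30 to 1316 CPM with a median of 14.9 CPM; 43 features reached 10 CPM and 15 reached 100 CPM. Per kilobase of the deposited feature length the lower SST mean had a median of 11.1 CPM per kb (quartiles 2.14 and 39.1), beside 14.9 CPM per kb (4.53 and 41.0) for the 13048 features with 1 CPM or more in all 8 SST libraries. By this measure the members sat slightly under the typical RNA of SST neurons. Their lengths had a median of 1753 bases (quartiles 1126 and 3012.5 bases), beside 1443 bases (888 and 2494 bases) in the same 13048 features.

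The member with the highest lower SST mean had 1553 ± 159 CPM in SST cortex and 1316 ± 68.8 CPM in SST hippocampus (n = 4 each), against 419 ± 59.1 CPM in PV and 196 ± 10.7 CPM in VIP. Another, only 558 bases long, had 2012 ± 299 CPM in SST cortex and 1044 ± 186 CPM in SST hippocampus, and per length it was the highest of all members at 1870 CPM per kb. Its second population was VIP, at 382 ± 28.9 CPM, well over PV at 76.8 ± 10.9 CPM. The typical ratio of SST to the other groups did not follow the level: its median was 3.07 in the 38 features at or above the median SST level and 3.03 in the 37 below it. The very highest ratios, 18.9 and 16.2, came at lower SST means of only 1.33 and 2.19 CPM. GSMG0013774 reached 12.4 at 59.0 CPM, and among members at 100 CPM or more the highest ratio was 4.94.

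Members lay close to the cut in number. Just inside the 2-fold ratio stood features at 2.02, 2.02 and 2.03 times, and just outside it features at 1.93, 1.90 and 1.89 times; 18 members were within 10% of that limit and 9 further features missed it by less than 10%. For the regional limit the nearest members had SST means 1.96-fold, 1.95-fold and 1.93-fold apart, and the nearest features left out 2.11-fold, 2.15-fold and 2.18-fold. For the level, the lowest SST library of the nearest members was at 1.04, 1.06 and 1.11 CPM, and that of the nearest features left out at 0.929, 0.841 and 0.836 CPM.

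The same rule was applied to each of the 28 pairs of groups, to place the number 75. The SST pair ranked the fourth, behind Scnn and VIP cortex with 137 features, CamK and Scnn cortex with 88, and CamK and Grik hippocampus with 79. The next pair, VIP cortex and Grik hippocampus, had 27, and the median pair had 6. Every pair is judged against the other 6 groups, so the numbers depend on what was sampled.

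Features high in SST of 1 region were set beside those high in SST of the other. By the same level and ratio limits applied to 1 region at a time, 204 features were high in SST cortex and 169 in SST hippocampus. They shared 94 features, which is 46.1% of the cortical and 55.6% of the hippocampal list. Of these 94, the 19 whose SST means were 2-fold or more apart were left out by the rule, 11 of them higher in cortex and 8 higher in hippocampus. Among the 110 features high in SST cortex alone, SST hippocampus had the highest mean after SST cortex in 70. Among the 75 high in SST hippocampus alone, SST cortex came next in 45. The share of all features with such an order was not taken, so these counts are a description only. Of the 70, 47 missed the 2-fold limit in hippocampus and 23 met it but not the minimum of 1 CPM. Of the 45, 36 missed the 2-fold limit in cortex and 9 met it but not the minimum.

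**Figure D2:**
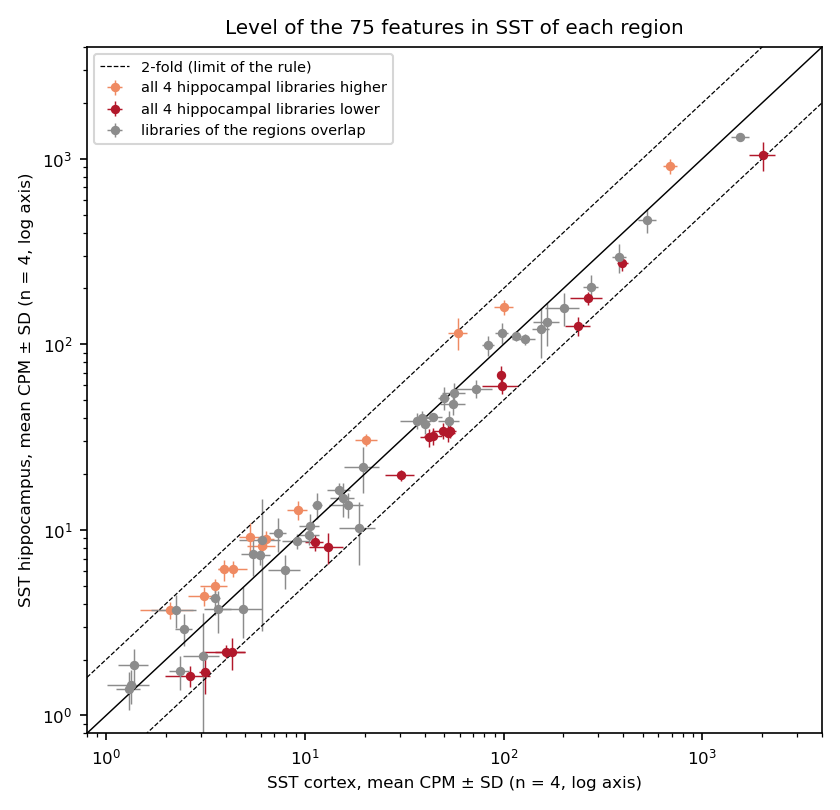
Mean CPM of each of the 75 features in SST cortex (x) and SST hippocampus (y), both on log axes, with the SD over 4 libraries as bars; the solid line marks equal levels and the dashed lines the 2-fold limit of the rule. The libraries of the regions overlap in 44 features (grey), all 4 hippocampal libraries are higher in 13 and all 4 lower in 18.

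Within the limit set by the rule, members still differed between the regions. The mean was higher in SST hippocampus for 32 features and lower for 43, with a median hippocampus to cortex ratio of 0.92 and quartiles of 0.73 and 1.22. The 2 means lay within 1.25-fold for 27 features. All 4 hippocampal libraries were above all 4 cortical ones in 13 features and below them in 18. Over all features tested these patterns were seen in 12.2% and 13.0%, and since the rule used this contrast nothing is read from the comparison. Region and the W of the titles cannot be told apart here.

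GSMG0013774 had the largest excess in hippocampus, 1.96-fold, just inside the limit. It stood at 60.5, 64.7, 49.8 and 60.9 CPM in the SST cortex libraries and at 117, 139, 121 and 84.4 CPM in the SST hippocampus libraries, with no overlap. In the other groups it stayed low, with the highest mean in VIP at 4.77 ± 0.62 CPM, so the SST groups exceeded all others by 12.4 times or more. Without SST cortex replicate 2 the SST means of GSMG0013774 were 2.02-fold apart, and without SST hippocampus replicate 5 they were 2.13-fold apart, so it would leave the set. The largest excess in cortex was that of GSMG0013879, described above.

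Replicates of the SST groups varied more on the members than on the features of SST neurons as a whole, members included. The median coefficient of variation over 4 libraries was 12.5% in SST cortex and 13.1% in SST hippocampus for the members, beside 8.85% and 9.99% for the 13048 features with 1 CPM in all SST libraries. The members also stood lower, with a median lower SST mean of 14.9 CPM beside 20.7 CPM. What part the level has in this difference was not tested. The widest member, GSMG0012842, is named after its values were seen and is one of the 2 features that overlap other groups. It was at 1.46, 1.04, 1.64 and 4.24 CPM in the SST hippocampus libraries, a coefficient of variation of 69.2%, so that replicate 5 alone was high. No SST library was high or low over the members as a whole: the median log2 ratio to the group mean lay between -0.08 and 0.05 for the 4 cortical libraries and between -0.11 and 0.03 for the 4 hippocampal ones.

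**Figure D3:**
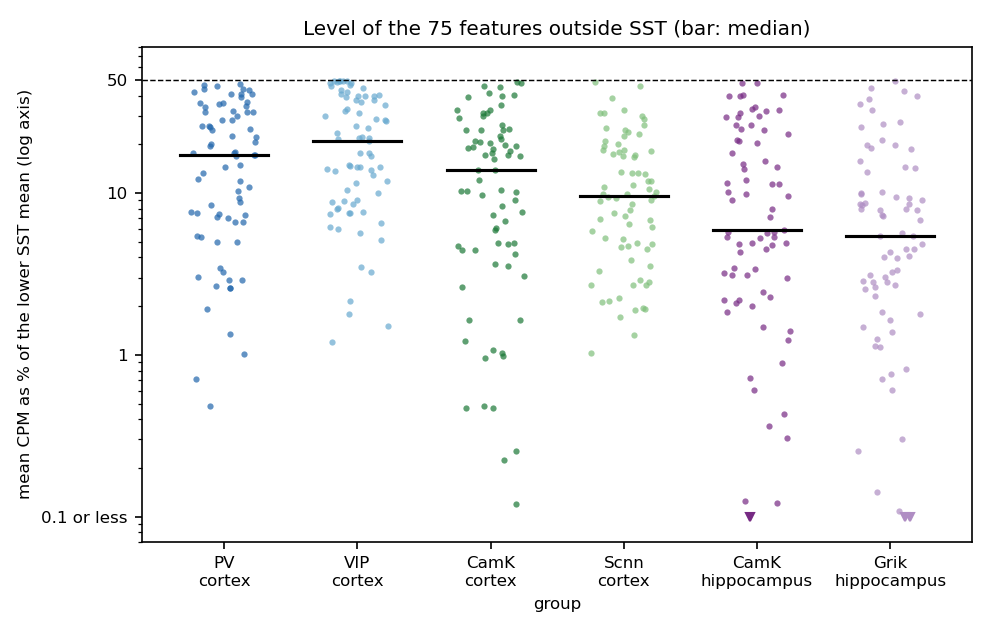
Mean CPM of each of the 75 features in the 6 groups without SST, as a percentage of its lower SST mean (log axis), with the median as a bar; the dashed line is the 50% ceiling of the rule, and triangles mark values of 0.1% or less. The medians run from 5.44% in Grik hippocampus to 21.0% in VIP cortex, and each group holds features from near the ceiling down to about 1% or less.

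Outside SST the members were found at low but uneven levels. As a share of the lower SST mean, the median over the 75 features was 21.0% in VIP and 17.3% in PV cortex, 13.8% in CamK and 9.58% in Scnn cortex, and 5.87% in CamK and 5.44% in Grik hippocampus. Every group covered a wide range. In PV, for example, members stood between 0.484% and 47.1% of their SST level, and in VIP between 1.20% and 49.6%. The lowest share of a member was 0.119% in CamK cortex and 1.03% in Scnn, and 0% in CamK and Grik hippocampus.

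A mean of 1 CPM or more was found in all 6 other groups for 28 members, and in none of the 6 for 16. The number with a mean of 1 CPM or more was 55 in VIP, 49 in Scnn, 44 in PV, 43 in CamK cortex, 39 in CamK hippocampus and 34 in Grik hippocampus. The second place after SST was taken most often by VIP, in 35 of 75 features (46.7%). PV followed in 16 (21.3%), CamK cortex in 10, CamK hippocampus in 7, Grik hippocampus in 4 and Scnn in 3. Over the 13048 features with 1 CPM in all SST libraries, VIP was the highest of the 6 groups in 26.9% and PV in 26.3%.

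In all, 5 comparisons among the groups without SST were then tested over all 24555 features. A feature was called at a Benjamini-Hochberg adjusted p under 0.05 in edgeR's quasi-likelihood test and a change of at least 2-fold. All 75 members passed the filter on low counts. Their SST libraries were enough for this, though 28 members also had a mean of 1 CPM or more in all 6 other groups. Of the 75 members, 66 were called in at least 1 of the 5 comparisons and 9 in none. Over all features the share called in at least 1 was 52.9%. Some of these calls rest on features near 0 in the groups compared. Of the 59 members with a mean of 1 CPM or more in at least 1 of the 6 groups, 50 (84.7%) were called in a comparison with such a group, beside 49.8% of all such features. The rule caps every mean but does not set their order, so each comparison is given beside the share of calls over all features. That share is not a matched reference. Members were chosen for their level in SST and for differing between groups, and the other features were not. How far this choice alone raises the share of calls was not tested.

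**Figure D4:**
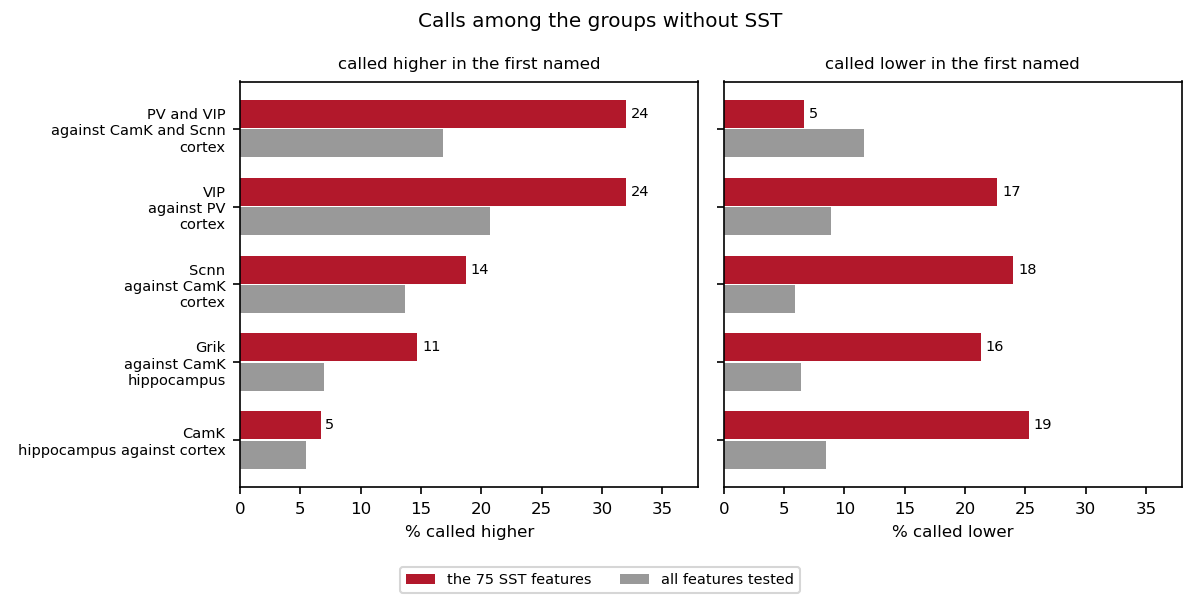
Share of the 75 features (red, with their number) and of all 24555 features tested (grey) called higher (left) or lower (right) in the first-named group of 5 comparisons among the groups without SST. The red bar is longer than the grey one in every comparison and direction apart from features lower in PV and VIP than in CamK and Scnn, where 5 of 75 were called.

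The other interneurons of the cortex were compared with its excitatory populations first. In the mean of PV and VIP, 24 of the 75 SST features were higher than in the mean of CamK and Scnn, where 16.8% of all features were. Another 5 (6.67%) were lower, beside 11.6% of all features. The median log2 fold change over the members was 0.41, against 0.09 over all features tested. Of the 58 members with a mean of 1 CPM or more in a group compared, 22 (37.9%) were called in either direction, beside 27.2% of all such features. The balance rested in part on VIP: for PV alone, where no title compared carries a W, 25 members were higher and 15 lower. Of all features 13.3% were then higher and 15.6% lower.

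GSMG0020752 showed the largest excess of the interneurons. Its CPM ran from 256 to 401 over the 8 PV and VIP libraries and from 2.95 to 22.3 over the 8 CamK and Scnn libraries. The means were 301 ± 67.5 CPM in PV and 332 ± 37.8 CPM in VIP (n = 4 each). The log2 ratio was 4.49 (standard error 0.36, adjusted p = 3.19e-11 by edgeR). In SST it was higher again, at 688 ± 53.3 CPM (cortex) and 913 ± 86.7 CPM (hippocampus) (n = 4 each), so all 3 interneuron classes carried it and SST most. It lies near the limit of the set: without VIP cortex replicate 3 the lower SST mean was 1.96 times that of VIP.

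GSMG0028661 was likewise highest in SST, then in PV and VIP, at a lower level. It was at 21.7 to 34.3 CPM in the PV and VIP libraries and at 0.241 to 3.09 CPM in the CamK and Scnn libraries (log2 ratio 4.34, standard error 0.22, adjusted p = 1.23e-15 by edgeR). In SST its libraries spanned 141 to 174 CPM in cortex and 92.0 to 171 CPM in hippocampus.

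GSMG0024927 was the only member to meet the naming rule in the other direction. Its 8 PV and VIP libraries were at 5.94 to 10.6 CPM and its 8 CamK and Scnn libraries at 13.2 to 16.5 CPM, a log2 ratio of -1.21 (standard error 0.09, adjusted p = 3.67e-13 by edgeR). With PV alone the difference was -0.85 and under the 2-fold limit. In this feature the excitatory cells of the cortex came nearer to SST, which was at 55.8 ± 7.84 CPM, than the other interneurons did.

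VIP and PV gave the most calls among the members of the 5 comparisons. Of the 75 features 24 were higher in VIP and 17 (22.7%) lower, beside 20.7% and 8.87% of all features. Among the 57 members with a mean of 1 CPM or more in VIP or PV, 31 (54.4%) were called, beside 32.2% of all such features. The median log2 fold change was 0.06, since the members went both ways. Of the 24 features that were higher in PV and VIP than in the excitatory groups, 5 were higher in VIP than in PV, 6 were lower and 13 were not called between them. VIP carries the W in its titles and PV does not, so a difference of class cannot be told apart from one of title series.

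GSMG0030403 separated VIP from PV most. It was at 3.20, 3.77, 3.0 and 3.05 CPM in the 4 VIP libraries and at 0.109, 0.052, 0.022 and 0.105 CPM in the 4 PV libraries. The log2 ratio was 5.25 (standard error 0.32, adjusted p = 2.17e-15 by edgeR). PV was the lowest of all 8 groups for this feature, which stood at 15.6 ± 2.16 CPM in SST cortex and also at 1.68 ± 0.73 CPM in CamK hippocampus.

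GSMG0017246 likewise was higher in VIP, at 24.8 to 30.8 CPM against 1.203 to 3.28 CPM in PV (log2 ratio 3.48, standard error 0.39, adjusted p = 2.97e-08 by edgeR). The SST cortex libraries were at 92.6 to 101 CPM.

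GSMG0010975 showed the reverse. Its 4 PV libraries were at 56.9, 89.4, 79.0 and 66.2 CPM and its 4 VIP libraries at 2.49, 3.52, 5.99 and 2.09 CPM, a log2 ratio of -4.64 (standard error 0.28, adjusted p = 4.77e-14 by edgeR). SST had 381 ± 31.6 CPM (cortex) and 295 ± 51.1 CPM (hippocampus), so this feature was carried by SST and PV and nearly lacking in VIP. GSMG0019553 had the same order at a low level, with 0.779 to 1.49 CPM in PV and at most 0.141 CPM in VIP (-4.14, standard error 0.55, adjusted p = 1.02e-07 by edgeR).

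**Figure D5:**
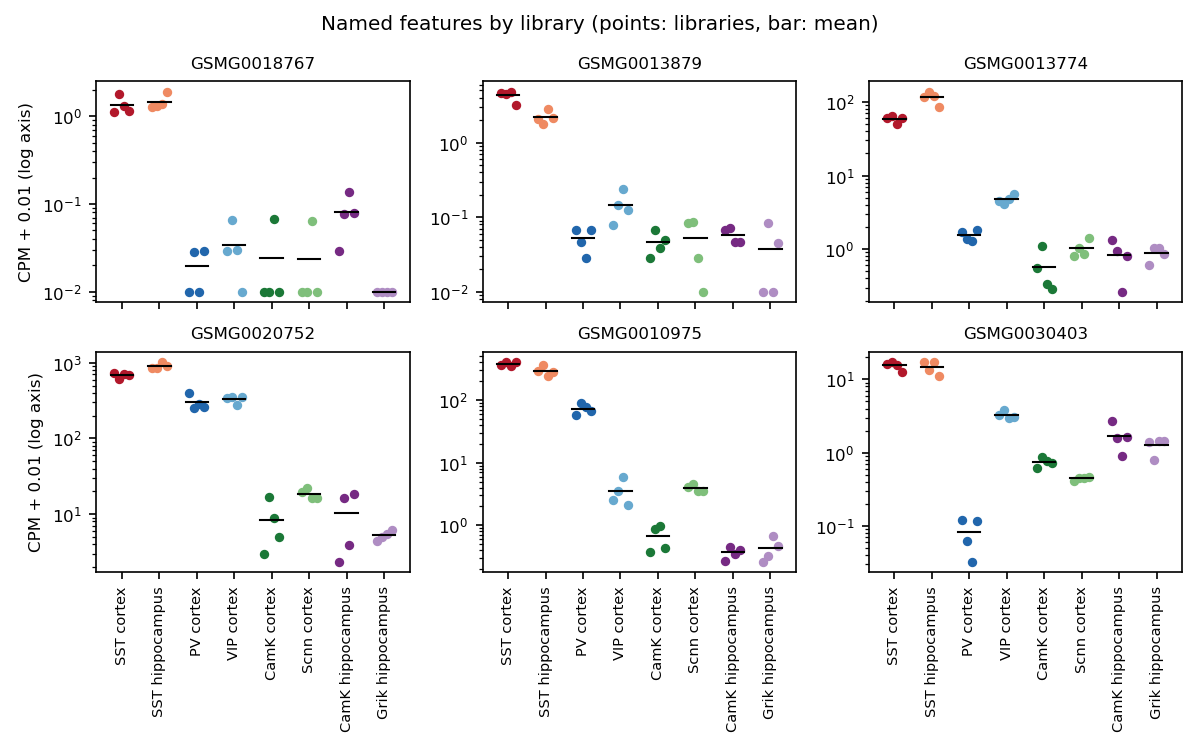
CPM of 6 named features in each of the 32 libraries (points, plotted as CPM + 0.01 on a log axis) with the mean of each group as a bar. The SST libraries are the highest in all 6 panels, while the next group is VIP for GSMG0013774 and GSMG0030403, PV for GSMG0010975, and PV and VIP together for GSMG0020752.

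Between the excitatory populations of the cortex, both of which carry no W, 14 members (18.7%) were higher in Scnn than in CamK and 18 lower, beside 13.7% and 5.94% of all features. Among the 51 members with a mean of 1 CPM or more in either, 23 (45.1%) were called, beside 16.1% of all such features. The features lower in Scnn were closer to their SST level, with a median of 23.6% of it in CamK, than the features higher in Scnn, with 3.17% in Scnn.

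GSMG0014818 was higher in Scnn, at 0.965 to 1.43 CPM against 0.133 to 0.233 CPM in CamK (log2 ratio 2.58, standard error 0.27, adjusted p = 2.69e-09 by edgeR). GSMG0010975, the feature that PV shared with SST, also was higher in Scnn, at 3.53 to 4.49 CPM against 0.370 to 0.970 CPM (2.48, standard error 0.29, adjusted p = 1.29e-07 by edgeR). Both stayed far under their SST levels of 11.5 ± 0.71 and 381 ± 31.6 CPM in cortex.

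GSMG0051041 was lower in Scnn. Its 4 Scnn libraries were at 13.7, 23.0, 16.1 and 16.5 CPM and its 4 CamK cortex libraries at 72.0, 74.6, 77.8 and 68.0 CPM (log2 ratio -2.17, standard error 0.18, adjusted p = 9.37e-11 by edgeR). CamK cortex thus lay near PV (63.9 ± 11.9 CPM) and VIP (66.2 ± 2.0 CPM) for this feature, and SST cortex was at 265 ± 48.9 CPM. GSMG0052485 was at 1.45 to 2.15 CPM in Scnn and 5.50 to 10.7 CPM in CamK (-2.14, standard error 0.27, adjusted p = 3.10e-07 by edgeR).

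In the hippocampus, Grik and CamK, which both carry the W, differed on 27 members. Of these 11 (14.7%) were higher in Grik and 16 (21.3%) lower, beside 6.99% and 6.40% of all features. Of the 42 members with a mean of 1 CPM or more in either, 16 (38.1%) were called, beside 13.5% of all such features. On the higher side the called features stood at a median of 9.07% of their lower SST mean where Grik was higher (0.302% to 44.9%) and 11.0% where it was lower (0.365% to 39.9%).

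GSMG0020663 was higher in Grik, at 4.16, 5.88, 4.14 and 5.41 CPM against 0.903, 0.662, 0.090 and 0.128 CPM in CamK (log2 ratio 3.56, standard error 0.38, adjusted p = 2.18e-08 by edgeR). Grik had the highest mean after SST for this feature, with VIP close to it at 4.45 ± 1.33 CPM. It stood at 49.9 ± 3.15 CPM in SST cortex and 51.6 ± 7.6 CPM in SST hippocampus. GSMG0019620 was at 4.98 to 5.88 CPM in Grik and 0.759 to 1.31 CPM in CamK (2.40, standard error 0.21, adjusted p = 1.43e-10 by edgeR).

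GSMG0035653 fell the other way, from 7.21, 9.25, 7.51 and 11.2 CPM in CamK to 0.515, 0.729, 0.712 and 0.434 CPM in Grik (log2 ratio -3.80, standard error 0.17, adjusted p = 1.50e-17 by edgeR). GSMG0011878 was at 9.03 to 13.4 CPM in CamK and 0.686 to 1.37 CPM in Grik (-3.60, standard error 0.18, adjusted p = 8.45e-17 by edgeR). For both, Grik was the lowest of all 8 groups. GSMG0035653 also lies near the limit of the set, at 1.97 and 1.99 times the highest other group without SST hippocampus replicate 1 or replicate 5.

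CamK neurons were sampled in both regions, and here the members went mostly 1 way. In the hippocampus 19 of the 75 features (25.3%) were lower than in the cortex and 5 (6.67%) higher, beside 8.46% and 5.43% of all features. The median log2 fold change was -0.46 over the members and 0.00 over all features tested. Of the 47 members with a mean of 1 CPM or more in either, 17 (36.2%) were called, beside 14.3% of all such features. Since CamK titles carry the W in hippocampus alone, a difference of region cannot be told apart from one of title series.

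GSMG0021053 was at 2.43, 3.35, 4.16 and 3.28 CPM in the CamK cortex libraries and at 0.094, 0.517, 0.140 and 0.222 CPM in the CamK hippocampus libraries (log2 ratio -3.82, standard error 0.27, adjusted p = 1.57e-12 by edgeR). GSMG0021051 had 7.01 to 8.43 CPM in the cortical libraries and between 0.368 and 1.15 CPM in the hippocampal ones (-3.37, standard error 0.20, adjusted p = 1.87e-14 by edgeR). In SST both also had all 4 hippocampal libraries under all 4 cortical ones, with means of 34.0 ± 2.77 against 53.7 ± 3.82 CPM for the former and 32.02 ± 3.19 against 44.3 ± 4.49 CPM for the latter. Their numbers lie close together, as do those of some other members, GSMG0019620 among them. Whether such features overlap or share reads is not known.

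GSMG0030403, the feature that separated VIP from PV, was the only member to meet the naming rule as higher in CamK hippocampus. It was at 2.66, 1.55, 0.892 and 1.63 CPM there and at 0.60, 0.852, 0.747 and 0.717 CPM in CamK cortex (log2 ratio 1.14, standard error 0.25, adjusted p = 0.000392 by edgeR). Without CamK hippocampus replicate 2, its highest library, the estimate was 0.86 and under the 2-fold limit.

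The regional difference of the members in CamK was set beside that in SST, which comes from separate libraries but was bounded by the rule. Of the 19 features lower in CamK hippocampus, 14 had a lower mean in SST hippocampus than in SST cortex, beside 43 of all 75 members. In 8 of the 19 all 4 hippocampal SST libraries were lower, and in 3 all 4 were higher, beside 18 and 13 of all 75 members, and 13.0% and 12.2% of all features tested. Since the rule used the SST values, nothing is read from these counts. Of the 5 features higher in CamK hippocampus, 3 had a higher mean in SST hippocampus, and the SST libraries of the regions overlapped in all 5.

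Beside these residual levels, RNA that PV and VIP carry was followed through 796 features outside the set that were at least 8-fold higher in PV and VIP than in CamK and Scnn. They were chosen from these data and include low CamK cortex and Scnn values by construction. They took up 1.27% to 1.56% of counts in the PV and VIP libraries, and also 0.806% to 0.858% in SST cortex and 0.719% to 0.803% in SST hippocampus, so the list is shared with SST. Their share was 0.023% to 0.036% in CamK cortex, 0.058% to 0.075% in Scnn, 0.046% to 0.060% in CamK hippocampus and 0.056% to 0.063% in Grik. The SST features had a joint share of 0.072% to 0.084% in CamK cortex and 0.054% to 0.069% in CamK hippocampus, the reverse order. CamK cortex was held low by the choice of the list, and CamK hippocampus was not used for it. Nothing is therefore read from the reversal.

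Within CamK hippocampus both lists were lowest in the same library. In replicate 4 the median log2 ratio to the group mean was -0.32 over the 39 SST features with a group mean of 1 CPM or more and -0.54 over 77 features of the PV and VIP list, against -0.05 over all features. In replicate 3 the medians were 0.19, 0.19 and 0.02. In replicate 5 the lists went opposite ways, at -0.07 for the SST features and 0.195 for the PV and VIP list. In CamK cortex both lists were low in replicates 1 and 4 and high in replicates 2 and 3, with medians in replicates 1 to 4 of -0.03, 0.08, 0.11 and -0.14 for the SST features and -0.30, 0.26, 0.12 and -0.23 for the PV and VIP list. In Scnn cortex both were highest in replicate 2, at 0.10 and 0.32, where all features had their lowest median, -0.10. The lists parted in some libraries of other groups. The medians were -0.06 and 0.10 in VIP cortex replicate 1, and 0.02 and -0.15 in VIP cortex replicate 3. They were -0.04 and 0.09 in Grik hippocampus replicate 4. What part RNA of interneurons has in the residual levels of the members was not tested.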

How the data were processed

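Ribosome-associated RNA of 32 mouse libraries was taken up on RNeasy Plus Micro columns and sequenced after a stranded, poly(A)-selecting TruSeq preparation, per the labels' protocols. The authors deposited expected counts, which are estimates and often fractional (20.1% of values above 0 were whole within 1e-06). Per the submitters' processing notes, the build was GRCm38 and the tools include featureCounts, SAMtools, Picard and FastQC. The aligner, the annotation and whether strand was used were not given in the sources used here. Hence overlapping, antisense and near-identical features are uncertain. A feature length, taken as bases, is given per the file headers. Another 12 columns matched no sample and were not used.

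CPM used column totals. For tests the counts were rounded, filtered with filterByExpr (24555 of 56459 features kept) and scaled by TMM, and all 32 libraries entered a model with a term per group in edgeR 4.0.16 (R 4.3.3), with 24 residual degrees of freedom. P-values were adjusted over all features tested. A standard error is the log2 fold change over the square root of F. Alternatives used DESeq2 1.42.0, RLE scaling, other filters, fewer libraries and a replicate block. Same-numbered libraries of Scnn and CamK cortex, and of Grik and CamK hippocampus, did not deviate together (correlations of -0.02 to 0.04); other groups were not checked. The main fit has no block.

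The members and tests were chosen with earlier results of these data known. Named members are, for each tested comparison, the 2 called features with the largest change each way, an average of at least 1 CPM in a higher-side group, and libraries of the sides that did not overlap; for SST, those with the 2 highest ratios to any other group; and for the SST regions, the largest ratio each way. Marker lists could not be used, since the identifiers carry no gene names.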

Additional observations from a re-analysis of the deposited data

Results flagged for a closer look

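Libraries that stood apart from the other 3 of their group, by a gap to the nearest of them that took up most of the group's range (Dixon's test at 95%), were looked for in 68 groups of 4 values (named features, and the joint share of the members). They were found in 8, where chance gives about 1 in 20 for independent values with a normal spread. That rate is a rough guide here, since the joint share contains the named features. A single library above 0 beside others at 0 is also always flagged. The joint share was lowest in VIP cortex replicate 3, at 0.163% against 0.178% to 0.181%, and GSMG0020752 was lowest in the same library, at 275 CPM against 347 to 352 CPM. GSMG0028661 was highest in Scnn cortex replicate 1, at 3.09 CPM against 1.97 to 2.09 CPM. In Grik hippocampus GSMG0019620 was highest in replicate 6, at 5.88 CPM against 4.98 to 5.10 CPM, and GSMG0011878 in replicate 4, at 1.37 CPM against 0.686 to 0.783 CPM. GSMG0018767 was highest in SST hippocampus replicate 5, at 1.90 CPM against 1.26 to 1.35 CPM, and was found in single libraries of CamK cortex (replicate 3, 0.057 CPM) and Scnn cortex (replicate 3, 0.055 CPM), with 0 in the other 3 of each. Over all 75 members, 8 of the 150 SST groups had such a library, spread over 6 of the 8 SST libraries.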

How the results depend on the processing

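The number of members was 75 with TMM-scaled CPM (69 of them the same features) and 73 with RLE scaling (70 the same). It depended on the fold limit, with 124 features at 1.5 times and 39 at 3 times each other group. Without each of the 32 libraries in turn it was 66 to 76. All 32 of these sets held 52 of the 75 members, and 17 of the other 23 had a ratio under 2.5 and 7 had SST means at least 1.8-fold apart. Of the 19 named features, 4 were among the 23: GSMG0013879, GSMG0013774, GSMG0020752 and GSMG0035653. Of 74 alternatives that leave out no library, 67 kept the count within 1.5 times. Without the fold limit, 14 members were lower in PV and VIP than in CamK and Scnn (main 5), 27 lower in Grik than in CamK (16) and 11 higher in CamK hippocampus (5). The share of all features called without that limit was not taken. These counts therefore show only how far the calls depend on the limit. With only the groups compared in the fit, 3 were higher in CamK hippocampus. With PV alone against CamK and Scnn, chosen after seeing the data, 15 were lower. Leaving out 1 library gave 23 to 25 higher and 5 to 6 lower in PV and VIP, 19 to 25 and 17 to 19 in VIP against PV, 13 to 17 and 14 to 20 in Scnn against CamK, 10 to 12 and 14 to 18 in Grik against CamK, and 4 to 7 and 18 to 22 in CamK hippocampus against cortex. With the replicate block, 14 members were higher and 18 lower in Scnn, and 10 higher and 14 lower in Grik; comparisons across the title series could not be fitted with it. DESeq2, RLE scaling and both other filters left every count of calls within 1.5 times. Named calls held under the alternatives run, except GSMG0030403 in CamK (without CamK hippocampus replicate 2) and GSMG0024927 (with PV alone). At this depth counting error is small for values well over 1 CPM and larger for values near or under it, also where the same feature is high in SST. Thus GSMG0030403 rested on 31 counts in the 4 PV libraries and GSMG0019553 on 33 in the 4 VIP libraries.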
